A study of Mus musculus with 37 samples.

Results

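CTCF loops that tied the promoter of a protein-coding gene to a distal site numbered 5946 in excitatory neurons of the mouse hippocampus, out of 27786 CTCF loops in the deposited file. A loop was kept when the midpoints of its anchors lay 25 to 500 kb apart and exactly one anchor came within 2.5 kb of the transcription start site (TSS) of a protein-coding gene of GENCODE M21. Of the 20556 loops of that span, 13802 had no promoter anchor and 808 had a promoter at both ends, and these served for comparison. The strength of a loop is its number of paired-end tags (PETs), the ligated DNA pairs that join its anchors.

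The loops came from 1 CTCF ChIA-PET library, a method that pulls down CTCF-bound chromatin and sequences DNA ends ligated in proximity. Its nuclei carried the Sun1-GFP tag of Camk2a-creERT2 x CAG-Sun1/sfGFP mice, aged 12 weeks and 1 month past tamoxifen, and were sorted by that tag, and the nuclei entered a single pool. RNA was measured in whole hippocampus of 3 control mice and 3 Kdm1a-ifKO mice, which lose the histone demethylase Kdm1a in principal neurons. The ifKO mice were Camk2a-creERT2 x Kdm1a f/f, with loxP sites around exons 5 and 6 of Kdm1a, and the controls were littermates without the Cre driver. All of these mice received tamoxifen, at 8 weeks of age, and were kept on the C57BL/6J background, and their age at dissection was not given in the sources used here. The neurons behind the loops therefore carried the Cre driver and the GFP reporter, while the RNA controls carried neither and their tissue held glia and vessels besides neurons.

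CTCF is a zinc finger protein that binds an asymmetric DNA motif and halts the cohesin ring as it extrudes chromatin into a loop. Loops form most readily between motifs that point toward each other, which is called the convergent arrangement. A CTCF site beside a promoter can bring the gene close to distant DNA or set it apart from its neighbours, and in neurons such sites are known from clusters of protocadherin genes.

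The core of the CTCF motif was searched as CC, 3 bases of any kind, then AGGNGGC, on both strands of each anchor in GRCm38. In 355 loops each anchor held a single match. The strongest of each arrangement of the motifs are printed with the 12 bases of the match in capitals, 5′ to 3′ on the strand of the motif, because the strand decides whether the motif points into the loop. In a convergent pair the left anchor has its motif on the plus strand and the right anchor on the minus strand.
Adamts8 other anchor, chr9:30480675-30480706, plus strand: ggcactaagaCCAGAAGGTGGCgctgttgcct
Adamts8 promoter anchor, chr9:30937219-30937250, minus strand: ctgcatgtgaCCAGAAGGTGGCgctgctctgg
Srrm3 promoter anchor, chr5:135797109-135797140, plus strand: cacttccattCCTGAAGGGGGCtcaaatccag
Srrm3 other anchor, chr5:135855332-135855363, minus strand: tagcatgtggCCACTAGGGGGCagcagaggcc
Cemip promoter anchor, chr7:84089961-84089992, plus strand: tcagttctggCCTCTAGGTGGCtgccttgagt
Cemip other anchor, chr7:84272925-84272956, minus strand: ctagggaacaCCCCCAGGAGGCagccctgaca
Gadd45b promoter anchor, chr10:80929197-80929228, plus strand: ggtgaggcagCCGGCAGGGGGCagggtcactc
Gadd45b other anchor, chr10:80995410-80995441, minus strand: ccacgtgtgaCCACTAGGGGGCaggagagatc

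These loops were all convergent. The Adamts8 loop (277 PETs) spanned 461 kb to an intergenic site, and both of its matches had the same 12 bases. The Srrm3 loop (172 PETs) ran 56.3 kb along its own gene into a Srrm3 exon, and the Cemip loop (125 PETs) ended 184 kb away in an intron of Arnt2. The Gadd45b loop (121 PETs) ended 63.0 kb away in an intron of Gng7. The loop of Slc7a5 (304 PETs) was stronger than these and was tandem, with both motifs on the minus strand.
Slc7a5 other anchor, chr8:121852704-121852735, minus strand: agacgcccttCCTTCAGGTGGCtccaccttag
Slc7a5 promoter anchor, chr8:121905523-121905554, minus strand: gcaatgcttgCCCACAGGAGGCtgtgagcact

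In a divergent pair both motifs point out of the loop. Among the 355 loops the strongest of this kind had 69 PETs. It ran from the promoter anchor of Cd164l2 and Gpr3 to an intron of Wdtc1, 89.1 kb away.
Cd164l2 and Gpr3 promoter anchor, chr4:133209438-133209469, minus strand: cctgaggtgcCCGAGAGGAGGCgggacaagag
Wdtc1 intron anchor, chr4:133297575-133297606, plus strand: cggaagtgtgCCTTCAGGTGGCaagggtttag

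Some promoters held the motif within the promoter itself. In RefSeq promoter windows (GRCm38.p6, 250 bases before to 50 after a start), 226 of the 2265 anchored genes with a window had a match on either strand (9.98%, 95% exact interval 8.77 to 11.3), against 818 of all 16522 protein-coding genes with a window (4.95%, interval 4.63 to 5.29). Cebpb, a transcription factor of the C/EBP family with a loop of 260 PETs, was among those 226, and its match began 246 bases before the start.
Cebpb promoter, chr2:167688665-167688964, plus strand: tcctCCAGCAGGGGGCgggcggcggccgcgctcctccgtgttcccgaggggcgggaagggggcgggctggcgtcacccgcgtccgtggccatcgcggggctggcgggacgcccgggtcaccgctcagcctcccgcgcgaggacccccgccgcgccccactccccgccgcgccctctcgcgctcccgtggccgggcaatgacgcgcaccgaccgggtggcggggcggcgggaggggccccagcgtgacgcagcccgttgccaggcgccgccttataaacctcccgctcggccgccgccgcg

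A match is a stretch of letters and not a measured binding site. The authors kept only loops with a CTCF peak at both anchors, which itself favours matches near anchored genes. Exact intervals here and below are at 95% and cover counting error only, since there was 1 library.

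Most loops with one promoter anchor were weak and a few were strong. Their median was 5 PETs (quartiles 3 and 10), 1810 of them (30.4%) stood at the file's minimum of 3 PETs, and the highest had 627. The 595 strongest loops held 53.9% of its 74704 PETs. Loops with no promoter anchor and with 2 promoter anchors had the same median and quartiles. At the strong end, 1.73% of loops with one promoter anchor reached 100 PETs (interval 1.42 to 2.1), between 0.935% of loops with none and 3.22% of loops with 2.

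Promoter loops were shorter. The median span was 103 kb (quartiles 56.6 and 185) for loops with one promoter anchor, 140 kb for loops with none and 72.0 kb for loops with 2. Only 6.59% of the loops with one promoter anchor spanned 350 kb or more. PET counts hardly moved with span, with a median of 5 from 25 to 350 kb and 4 beyond. Near the lower limit, 251 loops of the class measured 25 to 30 kb, while 818 loops of any class measured 20 to 25 kb and were left out.

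**Figure D1:**
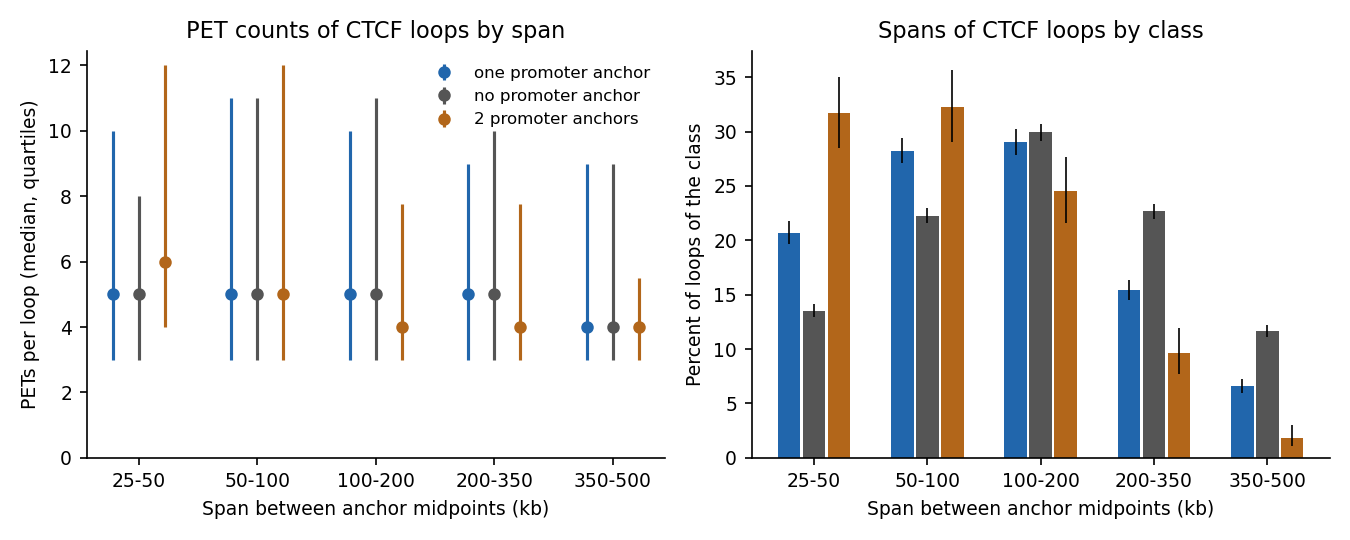
PET counts per loop by span (left; points are medians and bars the quartiles) and the percentage of each class in 5 bins of span in kb (right; bars with 95% exact intervals). The medians lie at 4 to 6 PETs in every bin and class, while 20.7% of loops with one promoter anchor fall in the shortest bin.

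Both anchor width and the share of loops with one promoter anchor were highest among the strongest loops. The median anchor widened from 985 bp in loops of 3 PETs to 9270 bp in loops of 100 or more. By the rule, loops with one promoter anchor made up 28.9% of loops of 3 PETs and 39.9% of those of 100 or more. With distance measured from the anchor midpoint, these shares were 26.4% and 22.5%. The TSS lay inside the promoter anchor in 39.0% of loops with one promoter anchor, within 1 kb of its edge in 69.3%, and at 2 to 2.5 kb, just inside the limit, in 9.20%. At the far end, 2.0% of other anchors lay 2.5 to 3 kb from a protein-coding TSS, just outside it.

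The strongest loop joined the promoter of Camk2a, the alpha subunit of a calcium-dependent kinase abundant in excitatory neurons, to an intron of the same gene (627 PETs, 35.7 kb). A further loop of 277 PETs left an anchor shared by Camk2a and its neighbour Arsi, a sulfatase gene, for an intergenic site 37.4 kb upstream. The Camk2a promoter anchor of the first loop was 39022 bp wide, against a median of 1391 bp for promoter anchors. In all, 64 loops of any span with 2556 PETs had an anchor within 100 kb of Camk2a, and a 100-kb bin there had the highest PET sum of 8885 bins (2512, against 1478 for the next and a median of 31). The nuclei were chosen by Cre expressed from a Camk2a promoter, and the part of the transgene in these loops was not tested. Without the 3 loops anchored at Camk2a, the median of the remaining 5943 loops was again 5 PETs.

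The second strongest loop lay in an imprinted cluster. It ran 315 kb from chr7:143459893-143476067, which held the starts of Cdkn1c, a cell cycle inhibitor, and Slc22a18, a membrane transporter, to an intron of Kcnq1, a potassium channel gene, at chr7:143145820-143160785, with 464 PETs. No other protein-coding TSS lay between these anchors.

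Other strong loops served genes of varied roles. Actr5, a subunit of the INO80 remodeller, had a loop of 313 PETs to an intergenic site 82.7 kb away, past 1 other TSS. Slc7a5, an amino acid transporter, had one of 304 PETs (53.4 kb). A loop of 260 PETs joined the anchor of Cebpb and Tmem189 to a site 213 kb off. The loop of the signalling ligand Wnt7a had 247 PETs (128 kb, intergenic), and that of the tyrosine kinase Abl1 had 245 and ended 101 kb downstream in an Abl1 intron. Of the 10 strongest loops, 6 ended between genes.

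The extremes of span belonged to ordinary loops. The longest, 499.7 kb with 7 PETs, started at Slc4a4, a bicarbonate transporter of astrocytes, and ended between genes. The shortest, 25.0 kb with 5 PETs, left an anchor that Vps52 and Rps18 shared.

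Other anchors were split between gene bodies and the DNA between genes. By their midpoints, 3171 of 5946 (53.3%, interval 52.1 to 54.6) were inside a protein-coding gene, 346 (5.82%) inside a noncoding gene only and 2429 (40.9%) between genes. Anchors of loops with no promoter anchor were 50.1% inside protein-coding genes and 43.7% between genes. The hosts were mostly other genes: 2522 other anchors (42.4%) lay in a different gene and 649 (10.9%) in the anchored gene itself. When the start of any transcript counted as a promoter, 44.8% of 8093 other anchors lay inside protein-coding genes. Introns took 2606 of the genic anchors and exons 565.

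Other anchors also kept closer to genes than the anchors of loops with no promoter. Their median distance to the nearest protein-coding TSS was 19.5 kb (quartiles 9.15 and 39.2), against 23.3 kb (10.6 and 51.6). The 3′ end of a gene lay within 2.5 kb of 17.6% of other anchors (interval 16.6 to 18.6), against 13.9% (13.5 to 14.3) of the anchors of loops with no promoter. The start of a noncoding gene lay as near in 11.7% and 10.8%.

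**Figure D2:**
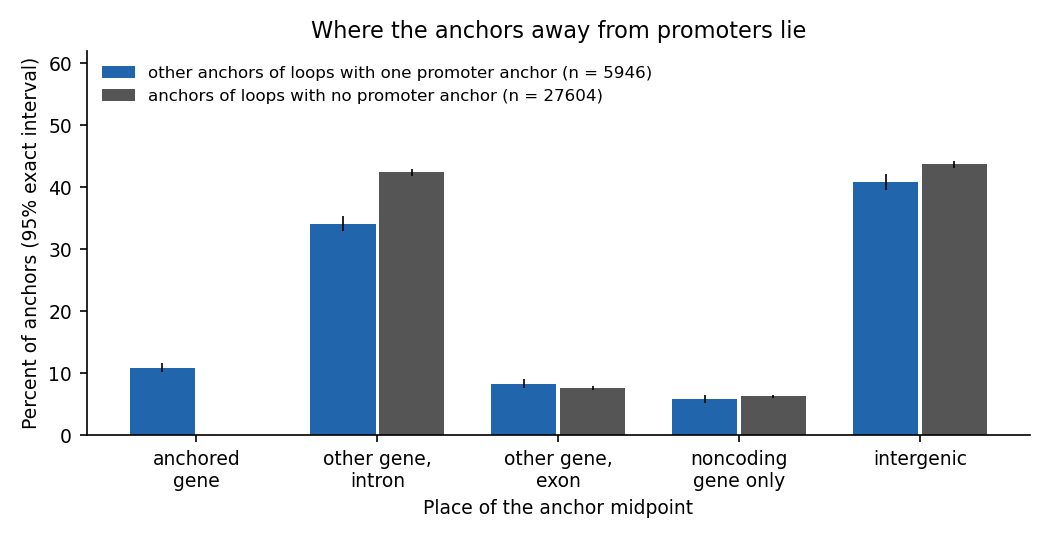
Percentage of anchors, by midpoint, in the anchored gene, in an intron or exon of another protein-coding gene, in a noncoding gene only or between genes, with 95% exact intervals. Other anchors (blue) fall between genes in 40.9% of cases and in the anchored gene in 10.9%, a place that loops with no promoter anchor (grey) cannot have.

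Loops left promoters downstream more often than upstream, and many of the downstream loops stayed within the anchored gene. Among 5481 loops whose promoter anchor held genes of 1 strand, 3005 reached downstream (54.8%, interval 53.5 to 56.2) and 2476 upstream. Of the downstream loops, 595 (19.8%) ended inside the anchored gene. Without loops of that kind, 2410 of 4886 (49.3%, interval 47.9 to 50.7) reached downstream. Most loops had protein-coding TSSs between the anchors: the median number was 2, the highest 25, and 1290 loops (21.7%) had none. This number includes the TSS of the anchored gene itself where that TSS lay outside the promoter anchor on the side of the loop. How many loops passed over other genes was therefore not counted apart.

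The loops gathered at a minority of promoters. Together they anchored 3001 of 21951 protein-coding genes (13.7%), and 859 of these were also at a loop with 2 promoter anchors. A single gene lay at the promoter anchor in 5370 loops (90.3%), and 465 loops had genes of both strands there. Of the anchored genes, 1342 (44.7%) had 1 loop, 256 had 5 or more and 11 had 10 or more. Overlapping anchors merged to 3017 promoter sites and 4381 other sites, so loops of 1 gene often shared an anchor and were not independent.

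The genes with the most loops were not those with the strongest. Tmem211 had 14 loops, the strongest of 65 PETs, and its 5 strongest ended in introns of 2900026A02Rik. Gm17606, Cipc and Igsf21 were among the genes with 11. Cipc, a partner of the clock protein CLOCK, had a strongest loop of 37 PETs over 148 kb. Igsf21, a synaptic adhesion molecule, had a pair of 12 PETs each that ran 241 kb and 300 kb upstream.

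By chromosome, the share of protein-coding genes with such a loop was highest on chromosome 11 (360 genes, 22%, 711 loops). Chromosome X stood apart with 5 genes of 948 (0.527%) and 8 loops with one promoter anchor, and it held only 55 CTCF loops of any kind.

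CTCF motifs at the anchors pointed into the loop more often than out of it. A match was found in 26.1% of promoter anchors and 28.5% of other anchors. Where all matches of an anchor pointed one way, they pointed into the loop in 963 of 1423 promoter anchors (67.7%, interval 65.2 to 70.1) and in 1177 of 1587 other anchors (74.2%, 71.9 to 76.3). In loops of at least 10 PETs these shares were 74.6% (70.6 to 78.2) and 79.1% (75.7 to 82.3).

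Pairs could be read in 446 loops (7.50%) where both anchors had matches of 1 direction. Of these, 226 were convergent (50.7%, interval 45.9 to 55.4), 188 tandem (42.2%) and 32 divergent (7.18%). Loops with no promoter anchor were convergent in 531 of 892 readable pairs (59.5%, 56.2 to 62.8). The share of convergent pairs in loops with one promoter anchor was 29.2% at 3 PETs (n = 48), 46.0% at 4 to 9 (n = 174), 58.9% at 10 to 49 (n = 163) and 59.0% at 50 or more (n = 61). With a looser motif that leaves out its last base, 42.0% of 869 pairs were convergent. A motif form added after the data were seen, with any base also after AG, gave 48.1% of 1176 pairs.

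**Figure D3:**
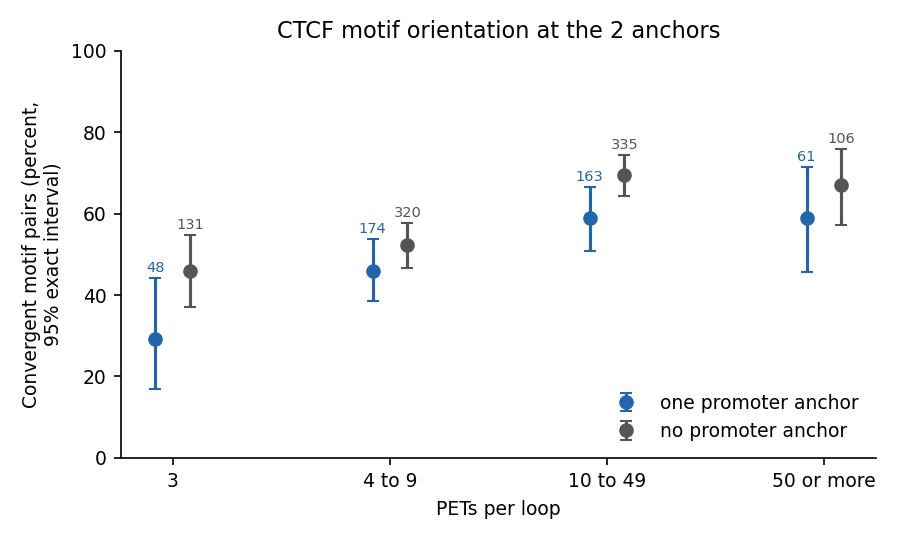
Percentage of convergent motif pairs by PETs per loop for loops with one promoter anchor (blue) and with none (grey), with 95% exact intervals and the number of readable pairs above each. In the blue class the share is 29.2% at 3 PETs and 59.0% at 50 or more, and the intervals of the classes overlap at each strength.

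To compare windows of one size, 1 kb was taken at the centre of each anchor. A match was found in 18.3% of promoter anchors (interval 17.4 to 19.3), 20.9% of other anchors (19.8 to 21.9) and 19.1% of anchors of loops with no promoter, against 10.2% (9.79 to 10.6) of windows at all protein-coding TSSs. The authors kept only loops with a CTCF peak at both anchors, which itself favours a match there. The TSS windows were centred on the start and not on an anchor.

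Anchored genes were mostly expressed in control hippocampus. Expression was read as TPM, the count of a gene divided by its summed exon length and scaled to the same total in every library. Of 2980 anchored genes in the count table, 70.9%, 70.6% and 70.8% had at least 5 TPM in the 3 control mice (mean 70.8% ± 0.159, SD, n = 3). Among all 21695 protein-coding genes counted, the share was 52.6% ± 0.250 (SD, n = 3), and among 17186 autosomal genes at no promoter loop of that span it was 50.1% ± 0.264. The median level was 19.9 TPM for anchored genes (quartiles 3.38 and 61.3) and 5.07 TPM for those autosomal genes. Genes met only at loops with 2 promoter anchors (n = 390) had 5 TPM in 73.2% ± 0.392 of cases. Gene length differed little, with medians of 17.9 kb for anchored and 17.6 kb for all protein-coding genes.

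Silent genes were among the anchored ones as well. In 226 anchored genes (7.58%) the control mean was under 0.1 TPM, against 28.7% of 18325 genes at no promoter loop, and 127 had no count in any control library. At the upper end, 470 anchored genes (15.8%) had 100 TPM or more, against 7.03%.

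**Figure D4:**
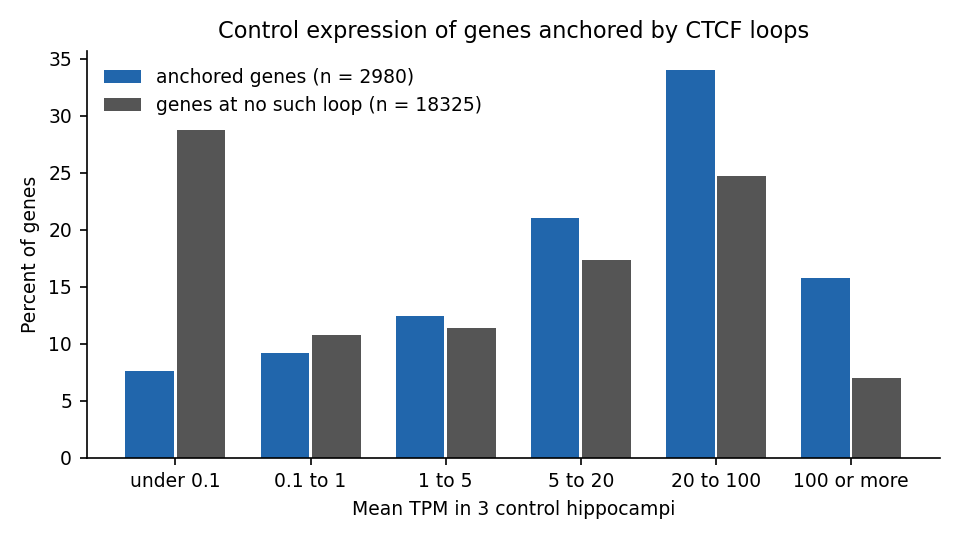
Percentage of genes by mean TPM in 3 control hippocampi, for 2980 anchored genes (blue) and 18325 protein-coding genes at no promoter loop of 25 to 500 kb (grey). The grey bar is the higher at under 0.1 TPM (28.7% against 7.58%) and the blue bar at 20 to 100 TPM (34% against 24.7%).

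Genes with stronger loops were expressed less often. Anchors also widened with PET count, and the part of anchor width in this trend was not tested. Genes whose strongest loop had 3 PETs reached 5 TPM in 76.7% ± 0.622 of cases (n = 517 genes, SD over 3 mice), those of 4 to 9 PETs in 73.7%, those of 10 to 49 PETs in 66.6% and those of 50 or more in 63.0% ± 0.192 (n = 301). Across the 2980 genes, as a description, Spearman's rho was -0.11 between control TPM and the strongest PET count and 0.00 between TPM and the number of loops. Genes with a loop that ended in the anchored gene were expressed more often (81.9% ± 0.569, n = 465) and were long, with a median of 102 kb. Genes that shared the promoter anchor of such a loop were counted with them. The minimum span of 25 kb itself favours long genes in this set. Among the 1457 genes that hosted an other anchor, 68.5% ± 0.352 reached 5 TPM. In pairs of 1 anchored gene and 1 host, the host reached 5 TPM in 68.3% of 1191 pairs with an expressed anchored gene and in 63.6% of 535 pairs without.

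The highest control levels belonged to general neuronal and glial genes. Cpe, which processes neuropeptides, had 3996, 3985 and 3913 TPM and a single loop, of 6 PETs, along its own gene. Apoe, a lipid carrier made mainly by astrocytes, had 2565, 2492 and 2364 TPM and a loop of 50 PETs over 32.2 kb. Camk2a had 2549, 2432 and 2433 TPM. Calm3, a calmodulin, followed with 2562, 2503 and 2291 TPM and a loop of 13 PETs, and the chaperone Hsp90ab1 had 2451, 2406 and 2336 TPM with 3 loops of up to 7 PETs. The spread between mice exceeded the gaps between Apoe, Camk2a, Calm3 and Hsp90ab1, while Cpe stood above them in every mouse.

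The genes at the strongest loops covered a wide range of levels. Slc22a18 was near zero (0.703 ± 0.387 TPM, SD, n = 3), Cdkn1c had 2.92 ± 0.314 TPM and Arsi 1.93 ± 0.219. Adamts8, a secreted protease, had 5.15 ± 0.759 TPM, Actr5 8.12 ± 1.24, Cebpb 11.2 ± 3.47, Wnt7a 19.4 ± 3.24 and Abl1 26.1 ± 1.08. Tmem189 (34.6 ± 1.58) and Slc7a5 (84.2 ± 6.32) were higher. Of the genes with the most loops, Tmem211 had 1 count in 1 control library and none in the others, whereas Cipc had 90.0 ± 2.77 TPM.

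Lists of cell type and pathway genes were anchored in part. Of 12 markers of excitatory neurons 4 were anchored, Camk2a, Slc17a6, Slc17a7 and Neurod2. Slc17a7, the vesicular glutamate transporter VGLUT1, had 8 loops of up to 23 PETs and 1034 ± 52.4 TPM. Of 13 interneuron markers only Vip was anchored (33 PETs). Markers of cells outside the sorted neurons were anchored too: 3 of 10 for astrocytes (Gfap, Sox9, Slc4a4), 2 of 12 for the oligodendrocyte lineage (Cldn11 among them), 2 of 10 for microglia (C1qc, Cx3cr1) and 2 of 10 for endothelial cells (Esam, Cdh5). C1qc, a complement component of microglia, had 7 loops of up to 48 PETs in the neuronal nuclei.

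Synaptic and chromatin genes were anchored at shares of 7.69% to 18.2% by list, against 13.7% of all protein-coding genes. The lowest share was that of Kdm1a and CoREST genes, with 1 of 13. Of 18 presynaptic release genes 2 were anchored, Cplx2 (5 loops of up to 72 PETs) and Rab3a, and of 20 postsynaptic genes 2 were, the NMDA receptor subunits Grin2a and Grin1, with 4 and 3 PETs. In the list of CTCF and cohesin genes they were Nipbl and Smc3 among 11, and in that of Polycomb subunits Cbx6, Pcgf1 and Cbx8 among 27. Of 18 immediate early genes 7 were anchored, including Egr1 to Egr4. All 7 had at least 5 TPM, as did all 18 of the list.

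Of 82 ribosomal protein genes 24 were anchored (29.3%), led by Rpl37a (133 PETs) and Rpl14 (112). Of the 24, 22 had at least 5 TPM, as did 76 of all 82. Ribosomal protein genes have processed copies, and a filter on mapping quality can lower the counts of such genes. The part of that filter in these levels was not tested. Of 39 Hox genes 8 were anchored (20.5%), led by Hoxc8 with a loop of 151 PETs that spanned 190 kb, and their highest control mean was 0.0730 TPM. Hoxc8, Hoxc10, Hoxc5 and Hoxb7 had no count in any control library. Of 394 Zfp genes, 35 were anchored (8.88%), against 13.7% of all protein-coding genes.

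In Kdm1a-ifKO hippocampus more anchored genes rose than fell. Kdm1a itself, which had no loop of this class, read 79.5, 81.1 and 79.6 CPM (counts scaled to library size) in the controls and 39.3, 36.9 and 38.4 in the ifKO mice. With edgeR's quasi-likelihood test and Benjamini-Hochberg adjusted p under 0.05, 236 of 2546 anchored genes tested rose (9.27%) and 45 fell (1.77%). Over all 16799 genes tested the shares were 6.04% and 2.82%, and over 14428 protein-coding genes 6.73% and 3.15%. The median log2 fold change was 0.03 for anchored genes and 0.00 for all. Above a log2 fold change of 1, 51 anchored genes rose (2.0%, against 1.36% of all genes tested). By as much, 2 fell (0.0786%, against 0.0655% of all genes tested). The shares of protein-coding genes past this limit are not given here. Another 455 anchored genes were absent from the count table or too low to test.

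These counts depended on single libraries. Without ifKO replicate 3, 145 anchored genes rose (5.66%, against 3.78% of all genes tested) and 11 fell (0.429%, against 0.801%). Without ifKO replicate 1 the falls numbered 18, and the share of all genes that fell in that fit is not given here. Without genes that overlap a gene on the opposite strand, 146 of 1414 rose (10.3%) and 24 fell, a choice made after the data were seen. In the same fit 6.04% of all genes tested rose and 2.82% fell, with overlapping genes included.

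Anchored genes that rose by more than 1 on the log2 scale were low in controls, with a median of 1.15 TPM and 17.6% of 51 at 5 TPM or more. The rise is measured from these same control libraries, so the choice itself favours low control levels. The control level of all 229 tested genes that rose as much was not compared. Their 109 loops had a median of 6 PETs and 111 kb, close to those of tested genes without a call (5 PETs, 99 kb). The 43 genes that hosted their other anchors had a median of 23.2 TPM, and 74.4% of them reached 5 TPM. Hosts of tested anchored genes without a call had a median of 17.4 TPM, and 69.2% of them reached 5 TPM. For the 236 genes that rose, 27 of 158 tested hosts also rose (17.1%) and 1 fell. For anchored genes without a call, 97 of 1029 tested hosts rose (9.43%). Some hosts were themselves anchored genes or neighbours of one, so these counts share genes.

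The largest rises took genes from near silence. C1ql4, a C1q-like synaptic protein, read 0.0523, 0 and 0.0537 CPM in controls and 5.66, 4.98 and 6.32 in ifKO mice, 2 counts against 331 in all. The ratio of these counts was 163, with an exact interval of 44.6 to 1348 that covers counting error only. Its 2 loops had 4 and 3 PETs, one of them to an intergenic site 4.75 kb from the start of Prph. Ltbp2, an extracellular matrix protein, read 0.157, 0.263 and 0.161 CPM in controls and 20.7, 18.2 and 17.7 in ifKO mice. Its log2 fold change was 6.56 (SE 0.20, adjusted p = 1.52e-10), and its loop of 3 PETs ended in an exon of Ltbp2. Ltbp2 overlaps D030025P21Rik on the opposite strand, and how far reads of the pair were told apart was not tested.

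Ppm1n, a phosphatase of the PP2C family, read 0.262, 0 and 0.0537 CPM in controls and 2.67, 2.94 and 2.88 in ifKO mice (log2 fold change 4.66, SE 0.46, adjusted p = 2.82e-05). Myod1, the master regulator of skeletal muscle, read 0.0523, 0.0525 and 0.161 CPM against 2.26, 1.62 and 2.52 (log2 fold change 4.5, SE 0.43). Its strongest loop had 60 PETs and ended in an intron of Otog, 97.6 kb upstream. Tfap2e, an AP-2 transcription factor, read 0.157, 0.0525 and 0.322 CPM against 4.47, 3.15 and 4.31 (log2 fold change 4.45, SE 0.36), with a loop of 90 PETs over 143 kb. In all 5 genes every ifKO library lay above every control library, which the naming rule required. They stayed called under each alternative tried, but the size of the rise moved with single control libraries. The log2 fold change of Ppm1n was 6.42 without control replicate 1 and 4.10 without control replicate 2, and that of C1ql4 (7.08) was 6.57 without control replicate 2. Without control replicate 3 it was 5.16 for Tfap2e and 5.19 for Myod1.

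Genes at the strongest loops moved too. Arsi, at the anchor shared with Camk2a, read 1.31, 1.63 and 1.40 CPM in controls and 13.9, 12.9 and 16 in ifKO mice (log2 fold change 3.30, SE 0.15, adjusted p = 1.76e-08). Camk2a at the same anchor read 4769, 4568 and 4588 CPM against 4994, 4476 and 4984, and the groups overlapped (log2 fold change 0.05, SE 0.05, adjusted p = 0.584). Cdkn1c read 1.31, 1.58 and 1.61 CPM against 3.6, 4.32 and 3.49 (log2 fold change 1.34, SE 0.20, adjusted p = 7.21e-04), while Slc22a18 at its anchor was too low to test. Cdkn1c overlaps Gm44732 on the opposite strand. The other genes named at the strongest loops were not called.

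The falls were smaller and less stable. Slc17a6, the vesicular glutamate transporter VGLUT2, read 17.4, 22.2 and 19.1 CPM in controls and 6.74, 12.4 and 8.42 in ifKO mice, and fell by 1.09 on the log2 scale (SE 0.21, adjusted p = 0.0215). Without control replicate 3 or ifKO replicate 3 its adjusted p was 0.0939 and 0.115. The Wnt inhibitor Wif1 read 1.41, 0.998 and 1.13 CPM against 0.566, 0.508 and 0.616 (adjusted p = 0.045), and its call was lost without any one of the 6 libraries. Adamts16, a secreted protease, fell by 0.71, the replication licensing factor Mcm5 by 0.58 and the receptor Gpr26, which overlaps Fgfr2 on the opposite strand, by 0.50. The call of Adamts16 was lost without any one library except ifKO replicate 2 (adjusted p up to 0.156), and that of Mcm5 without any one except ifKO replicate 1 (up to 0.158) and with DESeq2 (0.0913). The call of Gpr26 was lost without control replicate 1, ifKO replicate 1 or ifKO replicate 3 (up to 0.121). With the replicate block the adjusted p of Wif1, Adamts16, Mcm5 and Gpr26 was 0.0848, 0.0589, 0.0822 and 0.105.

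**Figure D5:**
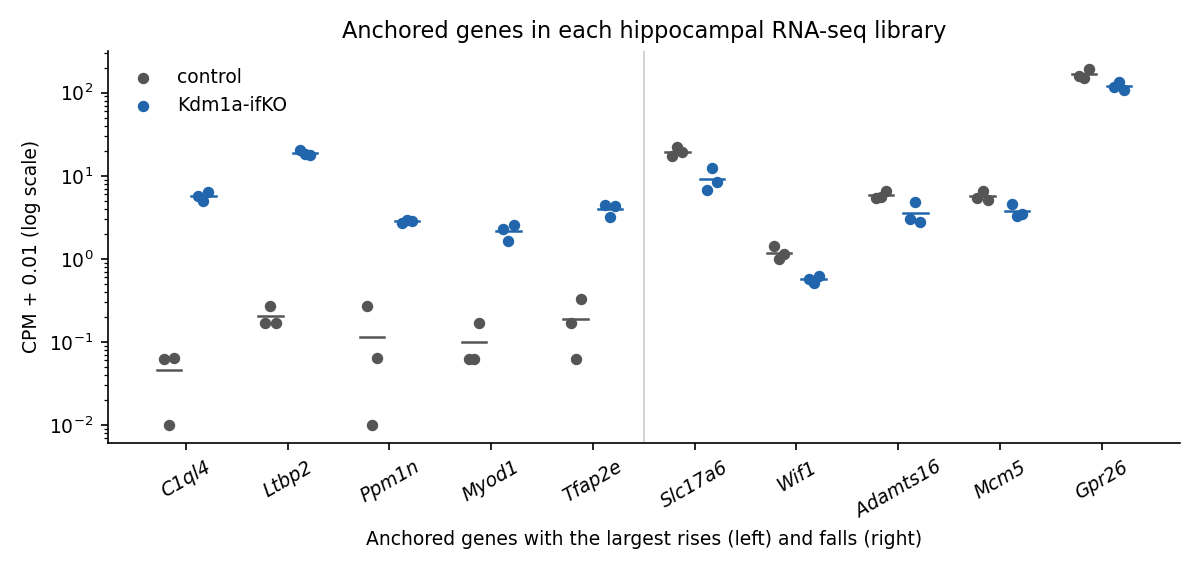
CPM plus 0.01, on a log axis, of the anchored genes with the largest rises and falls in each of 3 control (grey) and 3 Kdm1a-ifKO (blue) libraries, with the group means as lines. The control libraries of C1ql4 sit at 0 to 0.0537 CPM and its ifKO libraries at 4.98 to 6.32, while the groups of Gpr26 are 151.0 to 195.1 and 107.1 to 133.6 CPM.

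Among the lists, the CoREST partner Rcor2, with 3 loops of up to 18 PETs, rose by a log2 fold change of 0.73 (SE 0.08, adjusted p = 6.56e-05). It was the only anchored gene of the 13 in the Kdm1a and CoREST list, of which 4 rose in all and 1, Kdm1a itself, fell. A list of 16 loci was drawn up here, most of them named in the study, where many were chosen on these samples. It leaves out other genes that the study names, such as Tcf15. Of the 16, 11 rose in all, against 6.04% of all genes tested. The anchored ones were 5, and 3 of these rose: C1ql4, Tk1 (1.54, SE 0.21) and Tmc8 (1.78, SE 0.40), whose call was lost without ifKO replicate 1 (adjusted p = 0.07). Tk1, thymidine kinase, shared its anchor with Afmid and had 8 loops of up to 19 PETs, and one of 4 PETs ended in an intron of Tmc8, 36.7 kb away. Both Tk1 and Tmc8 overlap genes on the opposite strand. Vps18 (37 PETs, a loop ending 11.1 kb from the start of Spint1) and Gapdh (4 PETs) were not called, at 46.6 ± 3.63 and 13.4 ± 0.854 TPM. The part of the filter on mapping quality in the Gapdh level was not tested. Vip, an interneuron neuropeptide, fell by 0.46 (SE 0.10, adjusted p = 0.0122), and its adjusted p was 0.063 without ifKO replicate 1 and 0.0548 without ifKO replicate 3.

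Markers of some cell types moved with the genotype in whole hippocampus. None of the 12 oligodendrocyte-lineage or 10 endothelial markers was called. Their sums overlapped, at 5526 to 6084 CPM in controls and 5143 to 6651 in ifKO mice for the oligodendrocyte lineage. For endothelial cells they were 342 to 354 and 331 to 395. Of 10 astrocyte markers 4 rose, with a summed level of 5674 to 6329 CPM in controls and 6332 to 6646 in ifKO mice, and of 10 microglial markers 4 rose, with sums of 425 to 461 CPM in controls and 485 to 631 in ifKO mice. Over all genes tested 6.04% rose and 2.82% fell. Among the anchored markers of these lists, Sox9 of astrocytes (log2 fold change 0.38, SE 0.07, adjusted p = 0.00562) and Cx3cr1 of microglia (0.27, SE 0.07, adjusted p = 0.0208) rose. Gfap (0.38, adjusted p = 0.107), Slc4a4 (0.01, adjusted p = 0.971) and C1qc (0.41, adjusted p = 0.0771) did not pass the test, nor did the endothelial markers Esam (0.07, adjusted p = 0.703) and Cdh5 (0.17, adjusted p = 0.539). Apoe, which is in none of the lists, rose (0.30, SE 0.05, adjusted p = 0.00205). Cx3cr1 lost its call without control replicate 1 or 2 or ifKO replicate 2 or 3 (adjusted p up to 0.105). Of 12 excitatory markers 3 fell, with sums of 7767 to 8268 CPM in controls and 7619 to 8383 in ifKO mice. Of 13 interneuron markers 2 fell, and their sums did not overlap, at 1000 to 1057 CPM in controls and 952 to 981 in ifKO mice. No marker of any of these lists was at 0. In whole tissue fewer cells of a type and less RNA per cell cannot be told apart, and the part of cell type shares in the counts above was not tested.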

How the data were processed

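Per the study's methods, the authors aligned the CTCF ChIA-PET library with ChIA-PIPE to mm10, called CTCF peaks with MACS2 without input, and deposited loops with a CTCF peak at both anchors as PET counts of at least 3. For RNA-seq they trimmed single-end reads with cutadapt 1.18, aligned them with HISAT2 2.1.0 to GRCm38 and deposited gene counts from HTSeq 0.11.1 with mapping quality above 30. The 6 libraries held 18985542 to 19469947 counts each, and the 3 control and 3 ifKO mice were treated as replicates.

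Here anchors were matched to GENCODE M21, and distances run from the anchor edge. Counts were fitted with edgeR 4.0.16 (filterByExpr, TMM, glmQLFit, glmQLFTest, genotype only) in R 4.3.3. Analyses used Python 3.11.15, scipy 1.17.1 and DESeq2 1.42.0 (alternative). Loops, positions, motifs and control expression got no test. The members, lists and alternatives were chosen with earlier results of these data known. Genes named were those of the 10 strongest loops, the 5 with most loops, the 5 with highest control TPM, the 5 largest rises and falls among called genes whose groups did not overlap (mean of at least 1 CPM in the higher group), the loops of extreme span, and up to 4 anchored members of each list with the most PETs. Rps6k and Rps19bp1 genes were left out of the ribosomal list. Sequences were read from the GRCm38 genome and RefSeq promoter tables, leaving out chromosome 18. ChIP-seq and 4C-seq samples were not used here. Besides Adamts8 and Slc7a5, the loops whose motifs are printed, the Cebpb promoter and the loop from Tk1 to Tmc8 were chosen after their values were seen. Alternatives covered the TSS window, anchor midpoints, any transcript start, PET and TPM minimums, motif form, filters, normalization, the replicate block and leaving out each library. A few genes that the naming rule covers are not reported here.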

Additional observations from a re-analysis of the deposited data

How the results depend on the processing

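With at least 5 PETs there were 3181 loops with one promoter anchor, of median 9, and with at least 10 there were 1546, of median 20. Counting any transcript start put 44.8% of other anchors inside protein-coding genes and 51.1% of loops downstream, and counting all gene types put 59.1% inside genes. Downstream loops made up 49.3% without those inside the anchored gene. The share of convergent pairs was 58.9% at 10 or more PETs and 42.0% with the looser motif. The share of anchored genes at 5 TPM was 74.4% with a 1 kb window, 67.5% with 5 kb, 73.6% by anchor midpoint, 71.4% with any transcript start, 69.1% and 65.7% at 5 and 10 PETs, and 70.1% at 5 CPM. At 1 TPM it was 83.3%, and without single control mice it was 70.7% to 70.9%.

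Leaving out single RNA-seq libraries gave 145 to 220 anchored genes that rose and 11 to 46 that fell. With the replicate block 184 rose and 24 fell, against 236 and 45, but same-numbered mice did not deviate together (correlations -0.03, -0.09 and -0.14), so the numbers were not read as pairs. Except without ifKO replicate 3, the shares of all genes called in these fits are not given here. The counts therefore give no comparison with all genes. With no filter on low counts 338 rose (11.7%, against 5.03% of all genes) and 101 fell (3.51%, against 3.79%), so the share that fell was closer to that of all genes. At 5 or more PETs 28 fell, in the fit of all 6 libraries, where 2.82% of all genes tested fell. Leaving out genes that overlap a gene on the opposite strand, a choice made after the data were seen, gave 146 and 24 in the same fit. Of 200 alternative values for the 20 named genes that were called, 166 kept their side of the threshold and 34 lost it, with no change of direction. The single ChIA-PET library gives loops no replicate error, and loops of 3 PETs are known least well.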
